A study of Homo sapiens with 10 samples.

Results

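The 33 genes described here are interferon-stimulated genes, chosen by symbol from a fixed list of interferon-induced effectors, sensors and STAT/IRF factors, and all 33 were found among the 58735 lines of the deposited gene table. Gene expression was measured by poly(A) RNA-seq in 10 libraries of HCMECs, human brain endothelial cells that the labels record as a cell line. In 5 libraries the cells carried an siRNA against USP9X (siUSP9X), a deubiquitinase, and in 5 a control siRNA (siCtrl). Transfection lasted 48 h, and the cells of both groups then received Wnt3a, a Wnt/beta-catenin ligand, for 12 h. No cells without Wnt3a and none given interferon were analysed here, so the levels below are those of Wnt3a-treated cells. Nothing in the labels tells whether replicate libraries came from cultures grown apart, so p-values here reflect variation among libraries that could be technical.

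Interferons are cytokines released when a cell detects viral or misplaced nucleic acid. Type I interferons bind the receptor pair IFNAR1 and IFNAR2, the kinases JAK1 and TYK2 phosphorylate STAT factors, STAT2 among them, and these join IRF9 to bind the interferon-stimulated response element in the promoters of the genes described here. Brain endothelial cells respond to interferons, and many of these genes also keep a low tonic level without added interferon. Their products sense foreign RNA, block its translation or degrade it, restrict viral entry and release, and limit the response itself.

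The response element was looked for in the promoters. RefSeq promoter sequences (GRCh38.p14) were matched for 26 of the 33 genes, DDX58 under its current symbol RIGI, and the motif GAAANNGAAA was searched on both strands, with overlapping matches counted. In the window from 250 bases before to 50 bases after the start, 18 of the 26 promoters (69.2%) held the motif, against 4.38% of the 27305 genes with a promoter and 3.82% of the 9897 of them that were tested for differential expression. Those 18 were 13 of 19 members tested below and 5 of 7 that were too low to test. The motif was not found in these windows of OAS1, STAT2, IRF9, DDX58, IFI35, SAMD9L, CMPK2 and XAF1. IFIT2, OAS2, OASL, IRF7, USP18, IFITM2 and MX2 had no promoter matched. A match describes letters, not a bound site.

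The 250 bases before the start follow for OAS3 and STAT2, the members that passed the test with all 10 libraries, and for IFITM3 and ISG15, short and abundant members that passed it without siUSP9X replicate 2. Motif matches are in capitals, the sequences run 5′ to 3′ on the gene's strand, and the strands are plus, minus, minus and plus in the order shown. They lie at chr12:112938224-112938473, chr12:56360108-56360357, chr11:320861-321110 and chr1:1013247-1013496. Counted with -1 as the base before the start, the matches of OAS3 begin at -143 and -12, those of IFITM3 at -52 and -35, and those of ISG15, which overlap, at -113 and -107. STAT2 holds none in this stretch.
OAS3: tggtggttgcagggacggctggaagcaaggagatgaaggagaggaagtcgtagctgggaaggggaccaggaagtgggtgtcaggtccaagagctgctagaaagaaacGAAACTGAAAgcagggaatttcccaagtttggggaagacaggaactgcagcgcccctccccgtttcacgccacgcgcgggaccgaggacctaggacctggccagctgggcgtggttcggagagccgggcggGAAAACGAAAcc
STAT2: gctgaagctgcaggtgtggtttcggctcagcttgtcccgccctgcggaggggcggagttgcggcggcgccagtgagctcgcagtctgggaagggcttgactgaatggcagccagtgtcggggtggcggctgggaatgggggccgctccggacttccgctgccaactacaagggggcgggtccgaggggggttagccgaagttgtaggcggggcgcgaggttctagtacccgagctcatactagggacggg
IFITM3: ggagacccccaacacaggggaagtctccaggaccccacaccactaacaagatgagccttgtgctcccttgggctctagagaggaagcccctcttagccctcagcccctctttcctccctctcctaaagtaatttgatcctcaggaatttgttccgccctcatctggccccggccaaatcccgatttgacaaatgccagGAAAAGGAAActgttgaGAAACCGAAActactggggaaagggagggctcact
ISG15: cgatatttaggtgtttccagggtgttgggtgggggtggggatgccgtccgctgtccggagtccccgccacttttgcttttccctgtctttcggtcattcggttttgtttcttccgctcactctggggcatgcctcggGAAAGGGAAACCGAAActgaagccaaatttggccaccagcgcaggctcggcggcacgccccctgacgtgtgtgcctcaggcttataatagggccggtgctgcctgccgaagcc

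The labels and the libraries were checked first. USP9X was measured at 36.5, 68.7, 27.5, 22.3 and 20.7 counts per 1e+06 counts (CPM) in siUSP9X replicates 1 to 5, against 415, 283, 330, 324 and 351 CPM in siCtrl replicates 1 to 5. The groups did not overlap, and USP9X fell by 3.28 ± 0.32 on the log2 scale (SE; edgeR adjusted p = 0.000403). Library totals ran from 15958362 to 26467787 counts. Of 14 endothelial markers only CDH5, ESAM, ENG and EGFL7 were high enough to test, ERG and EMCN had 0 counts in all libraries, and PECAM1 averaged 0.096 CPM in siUSP9X and 0.075 CPM in siCtrl cells, so the endothelial label rests on few of its defining markers. Summed endothelial markers ran from 110 to 254 CPM in siUSP9X and 236 to 299 CPM in siCtrl libraries. Of 7 epithelial markers 3 were high enough to test, and KRT5 and KRT14 were at 0. The epithelial sum ran from 2029 to 2755 CPM in siUSP9X and 3313 to 4173 CPM in siCtrl libraries. It was the largest of the marker sums in both groups, far above the endothelial sum. Leukocyte and microglial markers (2 of 10 tested) summed to 1.1 to 2.58 CPM in siUSP9X and 2.12 to 3.14 CPM in siCtrl libraries, with CD3E at 0. Mural and fibroblast markers (4 of 9 tested) summed to 4.70 to 6.52 CPM in siUSP9X and 3.88 to 5.88 CPM in siCtrl libraries. Neural markers (2 of 7 tested), with OLIG2 at 0, summed to 81.0 to 111 CPM in siUSP9X and 84.6 to 99.9 CPM in siCtrl libraries. Each sum thus rests on few genes of its list. The part of these marker differences in the results was not tested, and in bulk RNA fewer cells of a type and less RNA per cell cannot be told apart.

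The siUSP9X library of replicate 2 stood apart from its group, and calls are given with and without it. Among the 5 siUSP9X libraries it held the highest value of 10 of the 25 tested members and the lowest value of 11. Its values split by gene length, taken as the union of all annotated exons of a gene. For each member the CPM in replicate 2 was divided by the median of the other siUSP9X libraries. The ratio was below 1 for all 5 members with under 2000 bases of annotated exon, with a median of 0.349, against 0.572 for all 1883 tested genes of that length. From 2000 to 4000 bases its median was 0.371 over 6 members, with IFIT3 alone above 1, against 0.730 for all genes. At 4000 bases or more it was above 1 for 10 of 14 members, with a median of 1.59, against 1.24 for all genes. Across the 25 members the ratio and the exon length had a Spearman correlation of 0.64, and across all tested genes 0.46, values that share the 1 library and describe it. Between groups, deviations from group means correlated most for siUSP9X replicate 2 and siCtrl replicate 1 (0.57). Among siCtrl libraries, replicate 1 was lowest for 11 tested members and highest for 5. ISG15, IFITM3 and IFI35 were lowest and DDX58 and PARP14 highest in both libraries, while HERC5 differed. The fits without siUSP9X replicate 2 keep this siCtrl library, and its part in them was not tested.

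**Figure D1:**
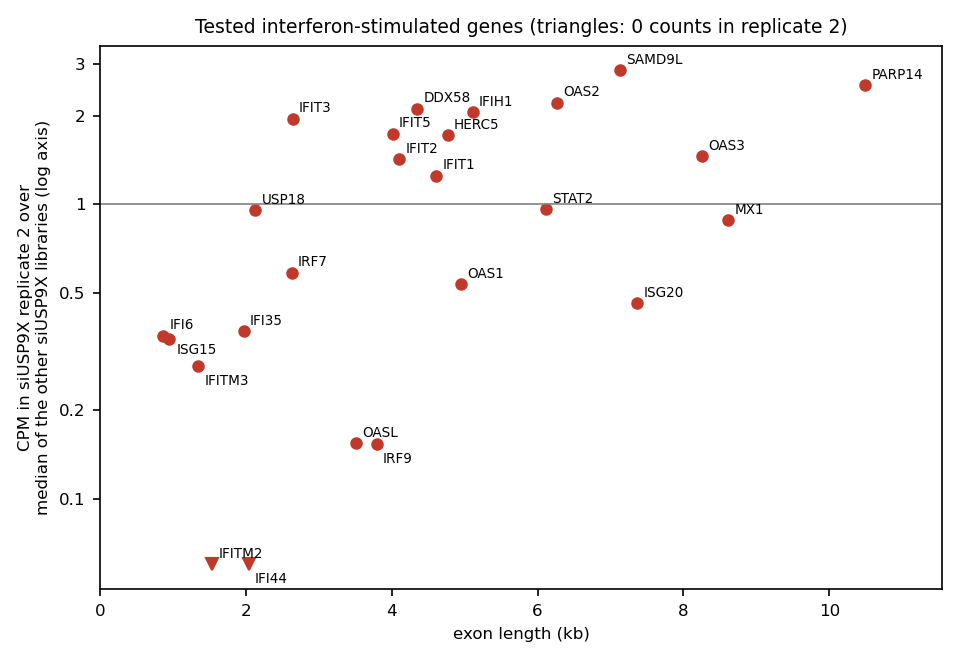
Ratio of CPM in siUSP9X replicate 2 to the median of the other siUSP9X libraries (vertical axis, log scale) against annotated exon length in kb (horizontal axis) for the 25 tested members, with triangles for IFITM2 and IFI44, which had 0 counts in replicate 2. All 5 members under 2 kb lie below 1, and 10 of the 14 at 4 kb or more lie above it.

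Per exon length, the set spanned a wide range of levels and was led by IFITM3 and OAS3. That length covers the exons of all annotated transcripts. A gene read mainly from a shorter transcript can thus rank too low per kb. IFITM3, which blocks the fusion of entering viruses, averaged 93.6 CPM per kb in siUSP9X and 153 CPM per kb in siCtrl cells, the 98.3rd percentile of tested protein-coding genes in siCtrl. OAS3, an oligoadenylate synthetase that activates RNase L when it meets double-stranded RNA, averaged 22.9 CPM per kb in siUSP9X and 32.5 CPM per kb in siCtrl cells (88.6th percentile). IFI35 averaged 24.9, ISG15 21.8, IFI6 17.5 and DDX58 16.6 CPM per kb in siCtrl cells. In siCtrl libraries the range of IFITM3 did not overlap that of OAS3, while neighbours in the order OAS3, IFI35, ISG15, IFI6 and DDX58 overlapped and so did not differ beyond their spread. DDX58 did not overlap PARP14, the next gene down. OAS3 and IFITM3 together held 41.9% of all counts of the 33 members in siUSP9X and 52.9% in siCtrl libraries.

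The middle of the order held PARP14, STAT2, IFIT5, USP18, IFIH1, HERC5, IRF7 and IFIT3, at 8.15 to 2.80 CPM per kb in siCtrl cells. OAS1, IFIT2, SAMD9L, IFIT1, ISG20, IFITM2 and IFI44 lay between 1.6 and 0.508 CPM per kb. IRF9 and OASL followed at 0.284 and 0.247 CPM per kb and OAS2 at 0.151 CPM per kb, with OASL at the 4.47th and OAS2 at the 2.37th percentile of tested protein-coding genes. MX1, one of the dynamin-like GTPases that trap viral particles, was at 0.0773 CPM per kb in siUSP9X and 0.0745 CPM per kb in siCtrl cells. With MX1, the genes IFI44L, RSAD2 and IFI27 were among the lowest members, and IFITM3, OAS3, ISG15 and IFI6 among the highest.

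**Figure D2:**
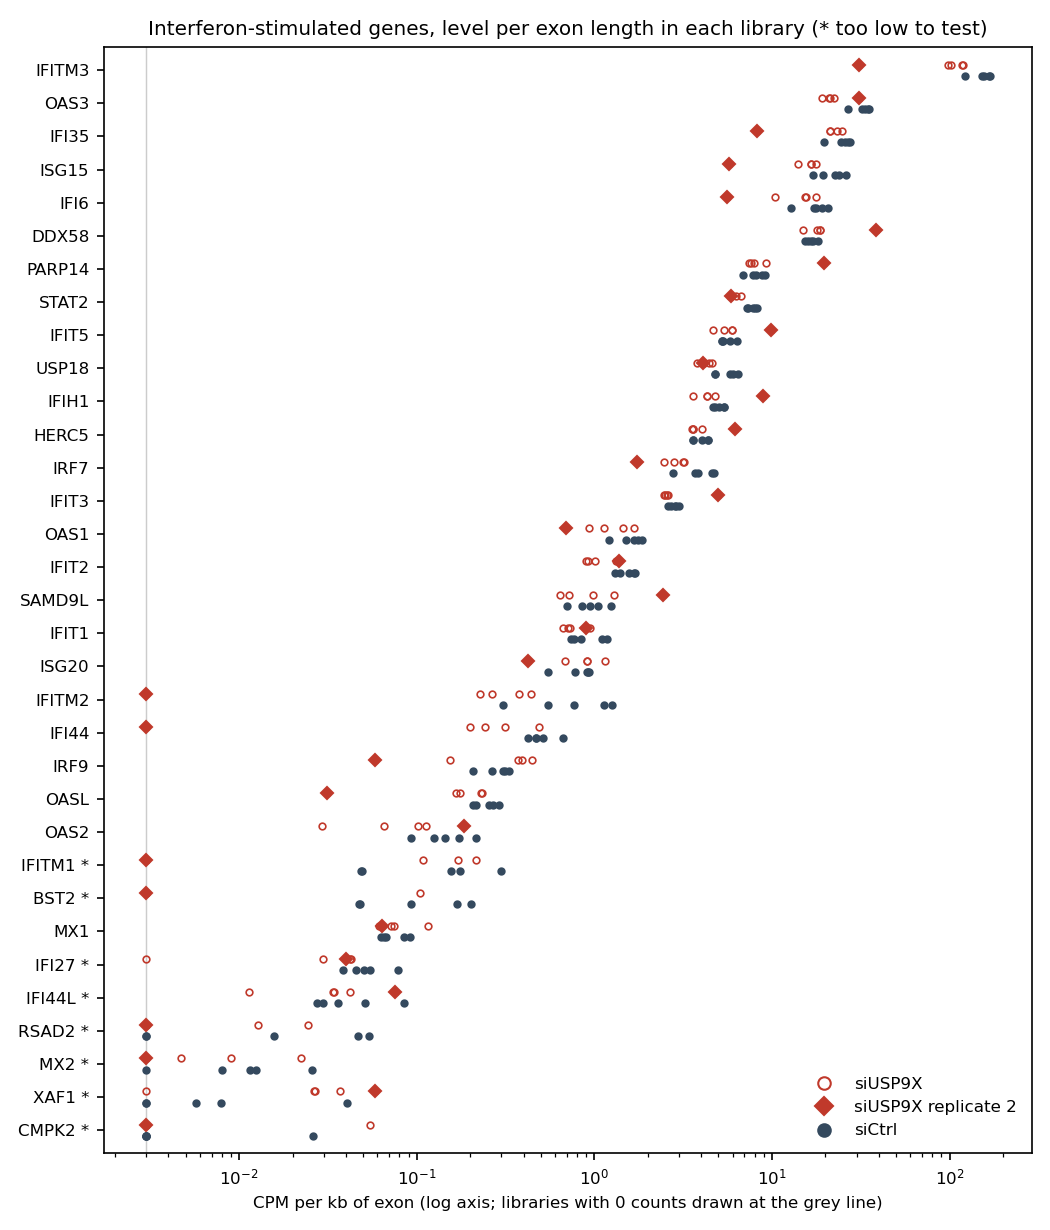
CPM per kb of annotated exon (horizontal log axis) for each of the 33 members, one gene per line in the order of the siCtrl mean, with open circles and a diamond for siUSP9X libraries and filled circles for siCtrl libraries. IFITM3 is at the top at 93.6 in siUSP9X and 153 in siCtrl, and the 8 members marked with an asterisk were too low to test.

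Of the 33 members, 25 passed the filter on low counts and 8 did not. With all 10 libraries, 2 of the 25 fell in siUSP9X cells, OAS3 and STAT2, which is 8% of the tested members against 3.22% of all 13934 tested genes called lower. No member rose, against 4.09% of all tested genes called higher. Of the members, 8 (32%) had an unadjusted edgeR p under 0.05. All 8 had negative fold changes. Of all tested genes 27.8% had such a p in either direction, close to the members' share, and 11.9% had it with a negative fold change. DESeq2 called 6 members lower (24%, against 7.89% of all genes in that fit) and 0 higher (against 9.25%), and limma-voom 2 lower (8%, against 3.52%) and 0 higher (against 3.92%). The median log2 fold change of the 25 was -0.34, against 0.03 over all tested genes, and it was negative for 17 of 25 members (68%), against 47.6% of all tested genes. Among the 25, OAS2, OASL, IRF9 and IFI44 reached the filter's level in every siCtrl library but not in every siUSP9X library. They thus passed the filter through their siCtrl values. All of them are among the 17 negative members, so that count and the median draw partly on genes admitted through siCtrl. IFITM2 reached it in 2 siUSP9X and 4 siCtrl libraries, and MX1 in 3 siUSP9X and 4 siCtrl libraries. With no filter all 33 were fitted, their median was -0.43 against 0.08 over all genes, 23 of 33 were negative against 45.6%, and OAS3 alone fell (3.03%, against 1.07% of all genes, with 1.27% of all genes higher).

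Without siUSP9X replicate 2, 8 of the 25 tested members fell, which is 32% against 11.5% of all 14086 tested genes called lower. These were IFIT2, OAS3, STAT2, IRF7, ISG15, USP18, IFITM2 and IFITM3, and the count includes IFITM2 although it met the filter in more siCtrl than siUSP9X libraries. No member rose, against 11.9% of all tested genes called higher. The median log2 fold change was -0.27, against 0.01 over all tested genes. It was negative for 21 of 25 members (84%, against 49.1% of all tested genes). OAS2, OASL and IFI44, noted above for passing the filter through siCtrl values, are among the 21. When any other 1 of the 10 libraries was left out, no member was called by edgeR. In those fits 6 to 10 of the 25 had an unadjusted p under 0.05, against 20.7% to 30.8% of all tested genes in the same fits.

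Over all 10 libraries, the groups did not overlap for STAT2, IFITM3 and USP18, all lower in siUSP9X, which is 3 of 25 members against 6.85% of all tested genes lower without overlap. None was higher without overlap, against 7.79% of all tested genes. Without siUSP9X replicate 2, OAS3 joined them, which made 4 of 25 lower against 9.48% of all tested genes, and none was higher, against 10.4%.

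The summed level of all 33 members was 743, 911, 704, 714 and 671 CPM in siUSP9X replicates 1 to 5, against 860, 859, 897, 947 and 935 CPM in siCtrl replicates 1 to 5. Replicate 2 of siUSP9X lay within the siCtrl range and the other 4 siUSP9X libraries lay below it. The sum leans on OAS3 and IFITM3. In those 4 libraries OAS3 averaged 173 CPM and IFITM3 147 CPM, against 268 and 206 CPM in siCtrl libraries. A lower sum is thus not a fall of the whole set.

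**Figure D3:**
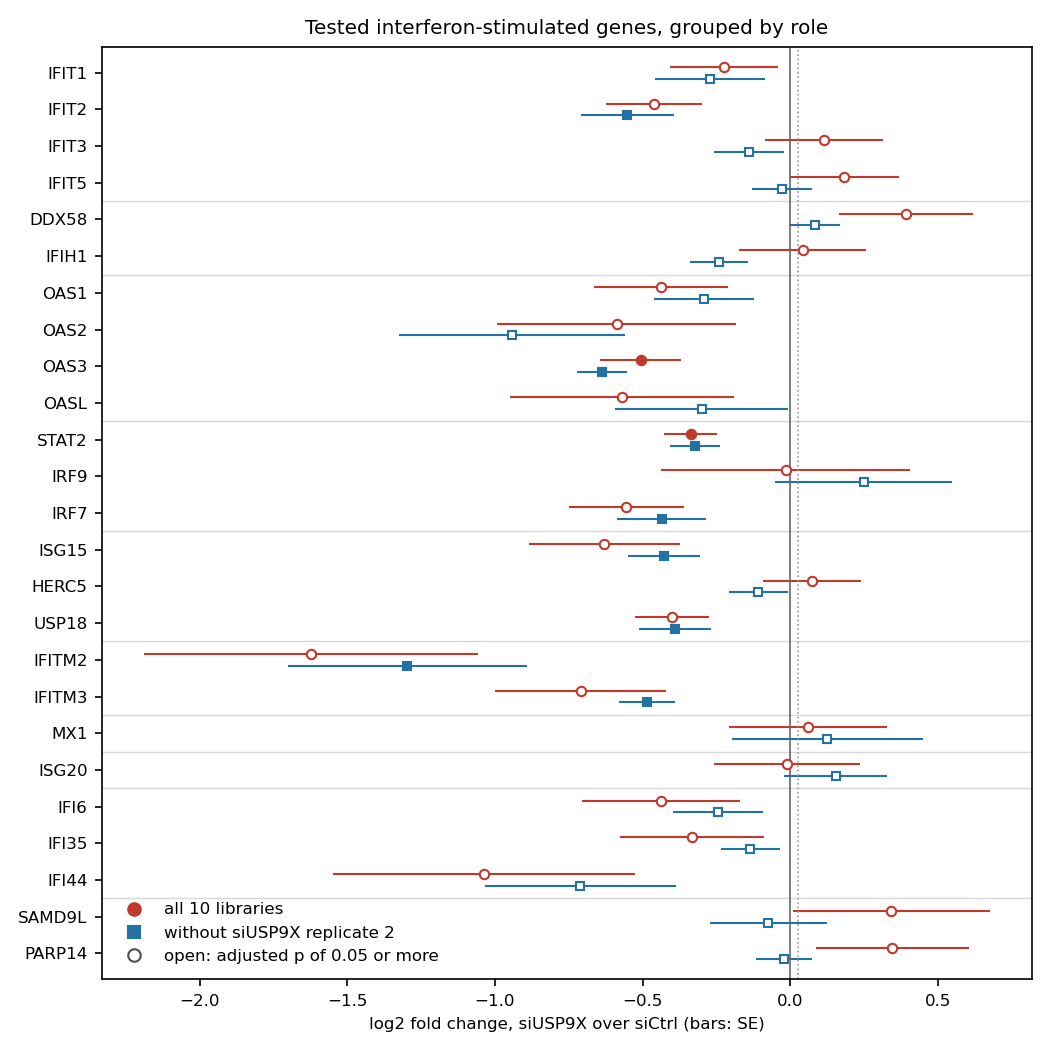
Log2 fold change of siUSP9X over siCtrl (horizontal axis, bars are SE) for the 25 tested members, grouped by role, from all 10 libraries (circles) and without siUSP9X replicate 2 (squares), with filled symbols for an edgeR adjusted p under 0.05. OAS3 and STAT2 are filled in the fit of all 10 libraries, 8 members are filled without replicate 2, and the dotted line is the median of all tested genes (0.03).

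STAT2 and OAS3 were the members called with all libraries. STAT2, a subunit of the interferon-activated transcription factor (chr12:56341597-56360155, minus strand, GRCh38), was at 38.5, 35.9, 35.5, 40.8 and 36.2 CPM in siUSP9X replicates 1 to 5. In siCtrl replicates 1 to 5 it was at 47.6, 44.7, 44.2, 49.3 and 50.5 CPM. The siUSP9X values were all below the siCtrl values, and replicate 2 lay with its group. STAT2 fell by 0.34 ± 0.09 on the log2 scale (edgeR adjusted p = 0.0454), and by 0.32 ± 0.08 without replicate 2 (adjusted p = 0.00934). The adjusted p was 0.0512 to 0.12 when any other library was left out, and 0.181 with no filter.

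OAS3 (chr12:112938352-112973249, plus strand) was at 184, 254, 158, 176 and 172 CPM in siUSP9X replicates 1 to 5, against 277, 223, 264, 286 and 291 CPM in siCtrl replicates 1 to 5. Its groups overlapped through 1 library: siUSP9X replicate 2 was above siCtrl replicate 2, and the other 4 siUSP9X libraries lay below all siCtrl libraries. OAS3 fell by 0.51 ± 0.14 on the log2 scale (edgeR adjusted p = 0.0488), and by 0.64 ± 0.08 without replicate 2 (adjusted p = 4e-05). The adjusted p was 0.0561 to 0.116 when any other library was left out. Of these members called with all libraries, OAS3 holds the response element motif in the promoter printed above and STAT2 does not.

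The rest of the OAS family had negative log2 fold changes that did not pass the test. OAS1, which lies beside OAS3 and OAS2 in 1 cluster on chromosome 12, ran from 3.43 to 8.28 CPM in siUSP9X and 5.95 to 9.17 CPM in siCtrl libraries, a log2 fold change of -0.44 (edgeR adjusted p = 0.222). OAS2 ran from 0.185 to 1.16 CPM in siUSP9X and 0.582 to 1.36 CPM in siCtrl libraries (-0.59, edgeR adjusted p = 0.341). OASL, a relative that binds RNA without making oligoadenylates, ran from 0.111 to 0.822 CPM in siUSP9X and 0.731 to 1.02 CPM in siCtrl libraries (-0.57, edgeR adjusted p = 0.326). In replicate 2 of siUSP9X, OAS2 and OAS3 had the highest and OAS1 and OASL the lowest value of their group.

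**Figure D4:**
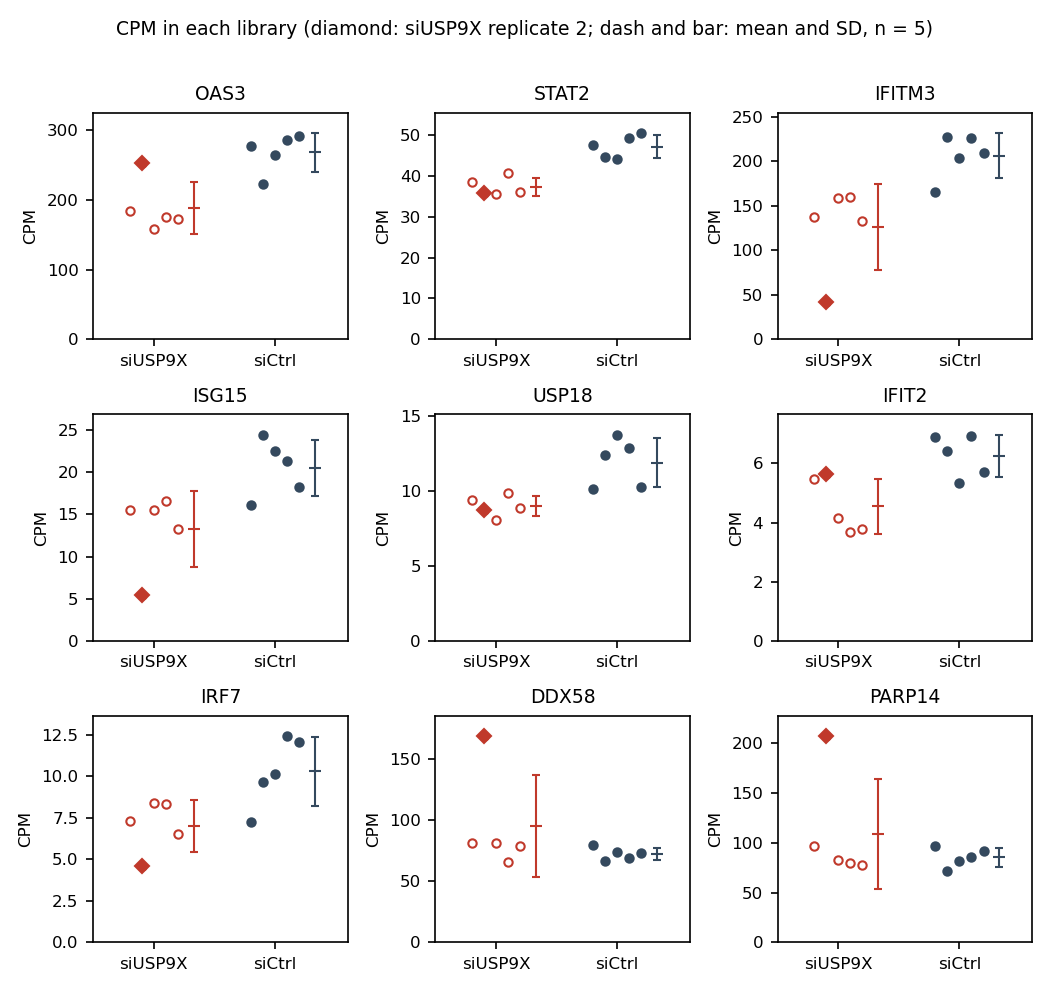
CPM in each library (vertical axes from 0) for 9 members, with siUSP9X libraries left and siCtrl libraries right in each panel, a diamond for siUSP9X replicate 2, and a dash with a bar for the mean and SD of 5 libraries. STAT2, IFITM3 and USP18 show no overlap between groups, and replicate 2 is at 254 CPM for OAS3, 41.9 CPM for IFITM3, 168 CPM for DDX58 and 206 CPM for PARP14.

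The IFITM proteins sit in endosomal and surface membranes and hinder viral fusion. IFITM3 was at 137, 41.9, 159, 160 and 133 CPM in siUSP9X replicates 1 to 5, against 165, 227, 204, 226 and 209 CPM in siCtrl replicates 1 to 5. The groups did not overlap, and replicate 2 was the lowest library by a wide margin. The log2 fold change was -0.71 ± 0.29 with all libraries (edgeR adjusted p = 0.14), and IFITM3 fell by 0.49 ± 0.09 without replicate 2 (edgeR adjusted p = 0.0012). IFITM2 was at 0.352, 0, 0.41, 0.677 and 0.58 CPM in siUSP9X replicates 1 to 5, against 0.47, 1.94, 1.18, 1.74 and 0.847 CPM in siCtrl replicates 1 to 5. It was called without replicate 2, with a log2 fold change of -1.30 (edgeR adjusted p = 0.0274), against -1.62 with all libraries (edgeR adjusted p = 0.0984). IFITM1, IFITM2 and IFITM3 are near-identical neighbours on chromosome 11, and how the authors' counting divided reads between them is not known here, so IFITM2 and IFITM1 are uncertain.

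The ISG15 system attaches and removes a ubiquitin-like tag. ISG15, the tag itself, was at 15.6, 5.42, 15.5, 16.6 and 13.2 CPM in siUSP9X replicates 1 to 5, against 16.1, 24.4, 22.5, 21.3 and 18.3 CPM in siCtrl replicates 1 to 5. Only siUSP9X replicate 4 reached into the siCtrl range. Over 10 libraries the log2 fold change of ISG15 was -0.63 ± 0.26 (edgeR adjusted p = 0.14), and ISG15 fell by 0.43 ± 0.12 without replicate 2 (edgeR adjusted p = 0.0166). USP18, which removes ISG15 from proteins and dampens signalling at the type I receptor, was at 9.39, 8.74, 8.08, 9.85 and 8.88 CPM in siUSP9X replicates 1 to 5, against 10.1, 12.4, 13.7, 12.9 and 10.2 CPM in siCtrl replicates 1 to 5. The groups lay close without overlapping, and its log2 fold change was -0.40 ± 0.12 (edgeR adjusted p = 0.071) with all libraries and -0.39 (edgeR adjusted p = 0.0291) without replicate 2. HERC5, the main ligase for ISG15, ran from 16.8 to 29.5 CPM in siUSP9X and 17.0 to 20.8 CPM in siCtrl libraries, with a log2 fold change of 0.07 (edgeR adjusted p = 0.783) that became -0.11 without replicate 2 (edgeR adjusted p = 0.462).

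Of the other transcription factors, IRF7, which drives interferon alpha genes, was at 7.34, 4.59, 8.37, 8.31 and 6.5 CPM in siUSP9X replicates 1 to 5, against 7.26, 9.66, 10.1, 12.4 and 12.1 CPM in siCtrl replicates 1 to 5. The groups overlapped through siCtrl replicate 1, and the log2 fold change was -0.56 ± 0.19 (edgeR adjusted p = 0.1) with all libraries and -0.44 (edgeR adjusted p = 0.0451) without siUSP9X replicate 2. IRF9, the DNA-binding partner of STAT2, was at 1.41, 0.221, 0.585, 1.48 and 1.68 CPM in siUSP9X replicates 1 to 5, against 0.783, 1.19, 1.01, 1.25 and 1.17 CPM in siCtrl replicates 1 to 5. Its siUSP9X values lay on both sides of the siCtrl range, with log2 fold changes of -0.02 over 10 libraries and 0.25 without replicate 2 (edgeR adjusted p = 0.982 and 0.587).

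The IFIT proteins bind foreign RNA and block its translation, and their genes form a cluster on chromosome 10. IFIT2 was at 5.46, 5.64, 4.16, 3.69 and 3.77 CPM in siUSP9X replicates 1 to 5, against 6.89, 6.42, 5.34, 6.92 and 5.72 CPM in siCtrl replicates 1 to 5. Its siUSP9X replicates 1 and 2 lay above the lowest siCtrl library, and the log2 fold change was -0.46 ± 0.16 (edgeR adjusted p = 0.1) with all libraries and -0.55 (edgeR adjusted p = 0.0165) without replicate 2. IFIT1 ran from 3.08 to 4.37 CPM in siUSP9X and 3.39 to 5.46 CPM in siCtrl libraries (log2 fold change -0.22, edgeR adjusted p = 0.424). IFIT3 ran from 6.56 to 13.1 CPM in siUSP9X and 6.83 to 7.89 CPM in siCtrl libraries, and IFIT5, which recognises triphosphorylated RNA ends, from 18.6 to 39.5 CPM in siUSP9X and 21.0 to 25.5 CPM in siCtrl libraries. Replicate 2 alone set the top of both siUSP9X ranges, and their log2 fold changes were 0.11 and 0.18 with it and -0.14 and -0.03 without it, none past the edgeR threshold.

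The cytosolic RNA sensors, the ADP-ribosyltransferase PARP14 and the translation repressor SAMD9L shared this pattern of 1 high library. DDX58, encoding RIG-I, was at 81.3, 168, 80.7, 65.2 and 78.5 CPM in siUSP9X replicates 1 to 5, against 79.3, 66.6, 73.8, 69.1 and 72.7 CPM in siCtrl replicates 1 to 5. Outside replicate 2 its siUSP9X values lay around the siCtrl range, with log2 fold changes of 0.39 ± 0.23 over 10 libraries and 0.08 without replicate 2 (edgeR adjusted p = 0.269 and 0.531). IFIH1, encoding MDA5, reached 45.3 CPM in replicate 2 with 18.5 to 24.4 CPM in the other siUSP9X cells and 23.7 to 27.6 CPM in siCtrl cells. PARP14 reached 206 CPM in replicate 2, with 77.5 to 96.6 CPM in the other siUSP9X cells and 72.0 to 96.6 CPM in siCtrl cells. SAMD9L reached 17.3 CPM there, with 4.59 to 9.16 CPM in the other siUSP9X cells and 5.02 to 8.82 CPM in siCtrl cells. Without replicate 2 the log2 fold changes of IFIH1, PARP14 and SAMD9L were -0.24, -0.02 and -0.08, and none passed the edgeR test in either fit.

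The tested IFI members, IFI6, IFI35 and IFI44, were low in replicate 2 instead. IFI44L and IFI27, too low to test, were there at 2.21 and 1.11 times the median of the other siUSP9X libraries. For IFI44L this was 14 counts, against 2 to 7 in each other siUSP9X library. For IFI27 it was 3 counts, against 0 to 3, so replicate 2 did not stand apart. IFI6, a short hydrophobic protein of the endoplasmic reticulum and mitochondria, was at 4.81 CPM in replicate 2, with 9.0 to 15.4 CPM in the other siUSP9X cells and 11 to 17.9 CPM in siCtrl cells. IFI35 was at 16.3 CPM there, with 41.7 to 48.7 CPM in the other siUSP9X cells and 38.6 to 54.5 CPM in siCtrl cells. IFI44 had 0 counts there and ran from 0.406 to 0.998 CPM in the other siUSP9X libraries, against 0.863 to 1.36 CPM in siCtrl libraries. Their log2 fold changes were -0.44, -0.33 and -1.04 with all libraries and -0.24, -0.14 and -0.71 without replicate 2, none past the edgeR threshold. ISG20, an exonuclease that degrades single-stranded RNA, ran from 3.10 to 8.43 CPM in siUSP9X and 4.02 to 6.85 CPM in siCtrl libraries (log2 fold change -0.01, edgeR adjusted p = 0.976). MX1 ran from 0.527 to 0.998 CPM in siUSP9X and 0.539 to 0.787 CPM in siCtrl libraries (log2 fold change 0.06, edgeR adjusted p = 0.894).

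The 8 members too low to test are given as counts pooled over the 5 libraries of a group, with exact 95% Poisson intervals that cover counting error only. BST2, tetherin, which holds budding virions at the cell surface, had 2 counts in siUSP9X libraries, or 0.0233 CPM (0.00283 to 0.0843), and 13 counts in siCtrl libraries, or 0.129 CPM (0.0687 to 0.221). RSAD2, viperin, had 3 counts in siUSP9X libraries, 0.035 CPM (0.00722 to 0.102), and 11 counts in siCtrl libraries, 0.109 CPM (0.0545 to 0.195). The intervals of both genes overlapped between groups. IFITM1 had 9 counts in siUSP9X and 16 in siCtrl libraries, MX2, a nuclear envelope relative of MX1 that restricts HIV, 8 and 15, and IFI27 11 and 22. CMPK2, a mitochondrial nucleotide kinase gene that neighbours RSAD2, had 4 counts in siUSP9X and 2 in siCtrl libraries, and IFI44L had 35 counts in siUSP9X and 46 in siCtrl libraries. XAF1, a binder of the apoptosis inhibitor XIAP, had 17 counts in siUSP9X libraries, 0.198 CPM (0.116 to 0.318), and 7 counts in siCtrl libraries, 0.0694 CPM (0.0279 to 0.143). None of these 8 was called in the edgeR fit with no filter. Overlap of the intervals does not show that the groups were equal, and the intervals leave out variation between libraries.

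The other genes of the pathway, 147 in lists that share no gene with the set, came next, with 101 tested together. Of these, 5 were higher in siUSP9X cells (4.95%, against 4.09% of all tested genes) and 1 lower (0.990%, against 3.22%). Without replicate 2, 14 were higher (13.9%, against 11.9%) and 15 lower (14.9%, against 11.5%). Interferon ligands were close to absent from the counts: 17 of 22 ligand genes, IFNB1 among them, had 0 counts in all 10 libraries, and all 22 together had 7 counts in siUSP9X and 6 in siCtrl libraries. A count of 0 for IFNB1 allows up to 0.035 CPM in siUSP9X and 0.0298 CPM in siCtrl libraries.

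Both chains of the type I receptor rose, 2 of 6 interferon receptor genes tested (33.3%, against 4.09% of all tested genes called higher). IFNAR1 was at 130, 253, 134, 121 and 134 CPM in siUSP9X replicates 1 to 5, against 102, 85.3, 86.6, 82.3 and 85.2 CPM in siCtrl replicates 1 to 5. IFNAR2 was at 9.45, 10.4, 11.9, 8.98 and 10.5 CPM in siUSP9X replicates 1 to 5, against 6.53, 7.71, 7.42, 6.5 and 6.14 CPM in siCtrl replicates 1 to 5. Every siUSP9X library lay above every siCtrl library for both genes, as for 7.79% of all tested genes. IFNAR1 rose by 0.81 ± 0.19 on the log2 scale (edgeR adjusted p = 0.0307) and by 0.56 without replicate 2 (8.04e-05). IFNAR2 rose by 0.58 ± 0.12 (edgeR adjusted p = 0.0185) and by 0.58 without replicate 2 (0.00301). The adjusted p of IFNAR1 reached 0.0523 to 0.0852 when siUSP9X replicate 5 or siCtrl replicate 2, 3, 4 or 5 was left out, and that of IFNAR2 reached 0.0586 and 0.0588 without siCtrl replicates 4 and 5.

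Of the 10 tested genes of JAK-STAT transduction and its inhibitors that are reported here, 1 rose (10%, against 4.09% of all tested genes). None fell, against 3.22%. DESeq2 called 3 higher (30%, against 9.25% of all genes in that fit) and 1 lower (10%, against 7.89%). With limma-voom 1 was higher (10%, against 3.92%). Without siUSP9X replicate 2, edgeR called 4 higher (40%, against 11.9% of all tested genes) and 1 lower (10%, against 11.5%). STAT3, which carries signals of interleukin receptors, rose by 0.45 ± 0.11 on the log2 scale (edgeR adjusted p = 0.0336), with 323 to 444 CPM in siUSP9X and 237 to 289 CPM in siCtrl libraries. Its adjusted p was 0.0528 to 0.0974 when siUSP9X replicate 1 or 5 or siCtrl replicate 2, 3, 4 or 5 was left out. Among those not called, TYK2 had a log2 fold change of -0.38 (edgeR adjusted p = 0.0574), JAK1 0.33 (0.183) and the feedback inhibitor SOCS1 0.39 (0.421).

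The genes that sense nucleic acid and induce interferon gave 0 calls among 19 tested with all 10 libraries. Of the 19, 6 had an unadjusted edgeR p under 0.05, as did 27.8% of all tested genes. DESeq2 called 1 higher (5.26%, against 9.25% of all genes in that fit) and 3 lower (15.8%, against 7.89%). With limma-voom 1 was lower (5.26%, against 3.52%). Without siUSP9X replicate 2, edgeR called 2 of the 19 higher (10.5%, against 11.9% of all tested genes) and 4 lower (21.1%, against 11.5%). MAVS, the mitochondrial adaptor of RIG-I and MDA5, had a log2 fold change of 0.36 (edgeR adjusted p = 0.124), the kinase TBK1 0.32 (0.238), IRF3 -0.35 (0.325), the double-stranded RNA receptor TLR3 -0.61 (0.19), the RNA-activated kinase EIF2AK2 0.08 (0.85) and the DNA sensor CGAS 0.02 (0.934). The median of the 19 was 0.05. STING, under the symbol TMEM173, was too low to test, with 60 counts in siUSP9X and 52 in siCtrl libraries. Among 5 tested interferon regulatory factors and their binding proteins none was called by edgeR with all libraries. Of the 5, 2 had an unadjusted edgeR p under 0.05, against 27.8% of all tested genes. DESeq2 called 1 higher (20%, against 9.25%) and 1 lower (20%, against 7.89%), and limma-voom 1 lower (20%, against 3.52%). Without replicate 2, edgeR called 1 of the 5 higher (20%, against 11.9%) and 1 lower (20%, against 11.5%). IRF1, itself induced by interferon, had a log2 fold change of -0.57 (edgeR adjusted p = 0.0549), at 31.2 to 58.2 CPM in siUSP9X and 66.8 to 82.9 CPM in siCtrl libraries.

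Of 41 tested interferon-induced genes outside the set, 1 fell (2.44%, against 3.22% of all tested genes) and none rose. Without siUSP9X replicate 2, edgeR called 3 higher (7.32%, against 11.9%) and 5 lower (12.2%, against 11.5%). With all libraries DESeq2 called 3 higher (7.5%, against 9.25%) and 5 lower (12.5%, against 7.89%), and limma-voom 1 lower (2.44%, against 3.52%). The gene that fell, LAP3, a leucine aminopeptidase, was at 55.4, 50.1, 51.5, 52.8 and 53.9 CPM in siUSP9X replicates 1 to 5, against 70.5, 77.3, 74.2, 74.8 and 70.6 CPM in siCtrl replicates 1 to 5. LAP3 fell by 0.48 ± 0.08 on the log2 scale (edgeR adjusted p = 0.00794), with no overlap, and its call held in all 10 fits that left out 1 library. The median of the 41 was -0.08. The chemokine CXCL10 was too low to test, with 2 counts in siUSP9X and 13 in siCtrl libraries.

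Of 4 tested guanylate-binding protein genes, whose products attack pathogen vacuoles, GBP1 and GBP2 rose (50%, against 4.09% of all tested genes). GBP1 was at 31.4, 54.9, 32.0, 29.4 and 30.8 CPM in siUSP9X replicates 1 to 5, against 19, 19.5, 21.7, 20.8 and 21.7 CPM in siCtrl replicates 1 to 5. GBP2 was at 8.16, 9.07, 7.03, 7.02 and 5.28 CPM in siUSP9X replicates 1 to 5, against 3.13, 4.53, 3.66, 4.88 and 4.71 CPM in siCtrl replicates 1 to 5. Neither gene overlapped between groups, while 7.79% of all tested genes were higher without overlap. The log2 fold changes were 0.80 ± 0.17 (edgeR adjusted p = 0.0202) for GBP1 and 0.80 ± 0.18 (0.0227) for GBP2. Without replicate 2 they were 0.59 and 0.71 and still called, while 4 of the 10 fits that left out 1 library lost the call of GBP1 (siCtrl replicates 2 to 5, adjusted p of 0.0508 to 0.0577) and 3 that of GBP2 (siUSP9X replicate 1, siCtrl replicates 2 and 3, 0.0531 to 0.0732). In the antigen presentation list none of 17 tested genes was called with all 10 libraries, and the median log2 fold change was -0.23. Of the 17, 5 had an unadjusted edgeR p under 0.05, as did 27.8% of all tested genes. DESeq2 called 2 lower (11.8%, against 7.89% of all genes in that fit) and limma-voom none. Without siUSP9X replicate 2, edgeR called 4 of the 17 lower (23.5%, against 11.5% of all tested genes) and none higher. B2M had a log2 fold change of -0.41 (edgeR adjusted p = 0.12) and was at its lowest in siUSP9X replicate 2.

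**Figure D5:**
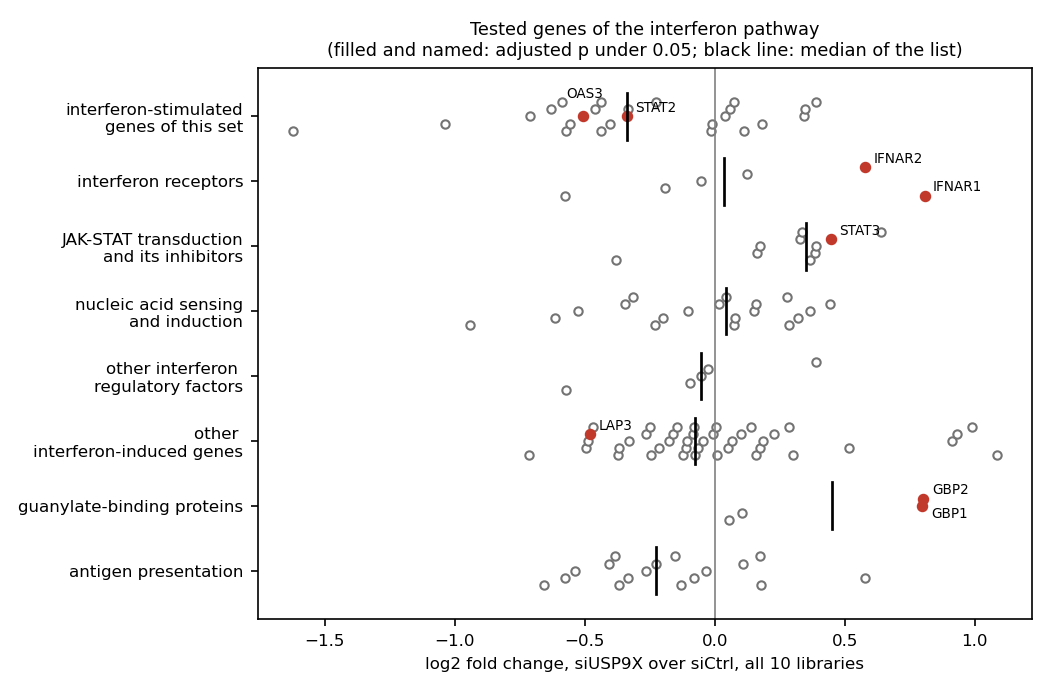
Log2 fold change of siUSP9X over siCtrl from all 10 libraries (horizontal axis) for the 25 tested members and the tested genes of 7 other interferon lists, each point a gene, with filled named points for an edgeR adjusted p under 0.05 and a black line for the median. The members' median is -0.34, IFNAR1, IFNAR2, STAT3, GBP1 and GBP2 lie to the right, and STAT2, OAS3 and LAP3 to the left.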

How the data were processed

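The data were 10 RNA-seq libraries, grouped by the treatment label and numbered as in their titles. The deposited table holds whole-number counts per gene symbol, not normalized, made by the authors, 1 column for each library. The libraries, per the labels' protocols, were stranded poly(A) mRNA preparations. RSEM, DESeq2 and the build hg38 appear in the submitters' processing notes without version or role, and no source used here says whether the counts are rounded RSEM estimates. Of the table's lines, 96.91% matched 1 gene of GENCODE release 29 (GRCh38) by symbol, all 33 members among them. Coordinates and exon lengths come from that release, and promoters from RefSeq (GRCh38.p14).

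Genes were tested with edgeR's quasi-likelihood test (edgeR 4.0.16, R 4.3.3, robust, TMM factors, filterByExpr with a minimum count of 10) with group as the only term, two-sided, Benjamini-Hochberg adjustment over all tested genes and a threshold of 0.05. CPM divide counts by the library total times its TMM factor. The test was tried on simulated data before use. Chi-square per degree of freedom between replicates of a group was 5.25 or more, so each library counted as 1 sample. The labels do not say that the numbers pair libraries, so they were not taken as pairs. Same-numbered libraries had correlations of -0.42 to 0.23 between their deviations from group means. These values cannot exclude pairs, because the siUSP9X mean includes the outlying replicate 2. The choice matters, since the fit with a replicate block called 0 members. Alternatives were DESeq2 size factors, library totals, no filter, at least 1 CPM in 5 libraries, DESeq2 1.42.0, limma-voom (limma 3.58.1), the replicate block, each library left out, and for the promoters the 250 bases before the start alone. The block with number 2 left out was added after the data were seen. Genes named are the 33 members, USP9X, called genes of the other lists and a fixed set of pathway genes, with endothelial and other cell markers named for the label check. A few genes of the pathway and marker lists are not reported here and are left out of the list counts. The members and lists were chosen with earlier results of these data known.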

Additional observations from a re-analysis of the deposited data

Results flagged for a closer look

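In each group of 5 libraries, the highest or lowest value was compared with Dixon's critical value of 0.71 for 43 genes, which gave 20 values that stood apart among 86 gene and group pairs, where chance gives about 1 in 20. Of these, 18 were in siUSP9X replicate 2, and 9 of those 18 were members. Replicate 2 was the highest siUSP9X library, far from the others, for IFIT3 (13.1 CPM), IFIT5 (39.5 CPM), DDX58 (168 CPM), IFIH1 (45.3 CPM), OAS3 (254 CPM), HERC5 (29.5 CPM) and PARP14 (206 CPM). It was the lowest, far from the others, for IFITM3 (41.9 CPM) and IFI35 (16.3 CPM). The exon-length values that moved with this library are given above, and their part in these values was not tested.

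Outside the members, replicate 2 was far above its group for IFNAR1 (253 CPM), GBP1 (54.9 CPM), JAK1 (1195 CPM), TBK1 (125 CPM), EIF2AK2 (205 CPM) and TLR3 (11.06 CPM). It was far below its group for IRF1 (31.2 CPM), IRF3 (28.3 CPM) and B2M (261 CPM). In the other libraries, MX1 stood apart in siUSP9X replicate 1 at 0.998 CPM, and IFNAR1 in siCtrl replicate 1 at 102 CPM.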

How the results depend on the processing

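OAS3 and STAT2 were both called at 1 CPM in 5 libraries and by limma-voom. Lower members numbered 1 with DESeq2 size factors (STAT2), 1 with library totals (OAS3), 1 with no filter (OAS3), 6 with DESeq2, 0 to 8 when 1 library was left out, 0 with the replicate block, and 8 with the replicate block and number 2 left out. No setting called a member higher. The count over all genes in the block fit without number 2 is not given here, so its 8 has no background to be read against. All genes gave 546 higher and 453 lower with DESeq2 size factors, 683 and 430 with library totals, and 389 and 328 with no filter. At 1 CPM in 5 libraries they gave 597 and 445, with DESeq2 1264 and 1078, and with limma-voom 546 and 491. The replicate block gave 34 higher and 57 lower. With 1 library left out, 170 to 1674 were higher and 189 to 1620 lower. The other interferon lists gave 7 higher and 3 lower with library totals, and 3 higher and 2 lower with no filter. At 1 CPM in 5 libraries they gave 5 higher and 2 lower, with DESeq2 12 and 12, and with limma-voom 5 and 3. The replicate block gave 0 and 0, and fits with 1 library left out gave 1 to 14 higher and 1 to 15 lower. The block ended every named call except USP9X, and no filter ended those of STAT2, IFNAR2 and STAT3.

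Uncalled fold changes near 0 changed sign: IFIH1 (-0.031 with limma-voom, -0.037 with the replicate block), EIF2AK2 (-0.0042 and -0.016) and CGAS (-0.010 with no filter). With 1 library left out, log2 fold changes ran from -0.14 to 0.18 for IFIT3, -0.029 to 0.27 for IFIT5, -0.24 to 0.14 for IFIH1, -0.24 to 0.25 for IRF9, -0.11 to 0.13 for HERC5, -0.13 to 0.14 for MX1, -0.17 to 0.15 for ISG20, -0.075 to 0.50 for SAMD9L, -0.022 to 0.44 for PARP14, -0.029 to 0.065 for CGAS and -0.25 to 0.19 for EIF2AK2. The promoter count of 18 was the same in the 250 bases before the start. The cause of these changes was not tested. Counting depth limits the 8 low members, and intervals cover counting error only.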

Other observations

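Some named pathway genes outside the set passed the test without siUSP9X replicate 2 but not with all 10 libraries. These were TLR3, SOCS1, IRF1, TYK2, B2M and MAVS. In the fit without replicate 2, 11.9% of all tested genes were called higher and 11.5% lower. TLR3, the endosomal receptor for double-stranded RNA, was at 5.34, 11.06, 4.68, 3.02 and 3.89 CPM in siUSP9X replicates 1 to 5, against 8.46, 8.68, 8.44, 8.47 and 8.89 CPM in siCtrl replicates 1 to 5. Replicate 2 was above every siCtrl library and the other siUSP9X libraries were below them, and without it TLR3 fell by 1.02 ± 0.15 on the log2 scale (edgeR adjusted p = 0.000127). SOCS1, which blocks JAK kinases, was at 28.1, 8.02, 25.5, 38.9 and 31.2 CPM in siUSP9X replicates 1 to 5, against 15.3, 23.1, 19.9, 20.5 and 21.8 CPM in siCtrl replicates 1 to 5. Its position in replicate 2 was the reverse of that of TLR3, and without it SOCS1 rose by 0.62 ± 0.13 (edgeR adjusted p = 0.00176). IRF1 (log2 fold change -0.44, edgeR adjusted p = 0.000967), TYK2 (-0.32, 0.00927) and B2M (-0.28, 0.0111) fell without replicate 2, and MAVS rose (0.22, 0.0422). For IRF1, TYK2 and B2M no siUSP9X library overlapped the siCtrl range, with or without replicate 2. Among all tested genes, 6.85% were lower without overlap with all libraries and 9.48% without replicate 2.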
